A study of Mus musculus with 24 samples.

Results

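The 9 genes described here set the balance between making and breaking down glucose in liver, and were followed across 24 mouse liver libraries: Pck1, G6pc, Fbp1, Pcx, Pklr, Pfkfb1, Pfkfb3, Ppargc1a and Txnip. They were taken by symbol from the deposited table of mRNA counts, where each symbol matched 1 row, so that 9 of 22429 genes are described here. All animals were male F1 hybrids of C57BL6J and FVBN, kept 1 to a cage on AIN93G pellets. The 6 groups had 4 libraries each. Of these, 3 were wild type: freely fed at 16 weeks, restricted at 16 weeks and freely fed at 104 weeks. The other three carried Ercc1 d/-, a whole-body genotype with reduced function of the DNA repair endonuclease subunit ERCC1 that gives early ageing features, and were freely fed at 7 weeks, freely fed at 16 weeks or restricted at 16 weeks. Freely fed wild-type mice ate 3.0 g and freely fed mutants 2.3 g of food a day on average. Restriction began at week 7 with a 10% cut, grew in weekly steps and stood at 30% from week 9, which is 2.1 g a day for wild type and 1.6 g a day for mutants. Restricted food came shortly before lights off, and no food was given on the day of collection before the liver was taken. The hour of collection is not given in the sources used here. Wild-type liver at 7 weeks was not analysed here, so the step from 7 to 16 weeks in mutants has no wild-type counterpart.

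Liver releases glucose between meals by gluconeogenesis and takes it up after meals by glycolysis, and both routes share most of their enzymes. Control lies at the few irreversible steps. Pyruvate carboxylase (Pcx) and phosphoenolpyruvate carboxykinase (Pck1) together carry pyruvate past the pyruvate kinase step (Pklr), fructose-1,6-bisphosphatase (Fbp1) opposes phosphofructokinase, and glucose-6-phosphatase (G6pc) carries out the last step of glucose release. Pfkfb1 and Pfkfb3 encode bifunctional enzymes that make and remove fructose-2,6-bisphosphate, the small molecule that drives phosphofructokinase and holds back fructose-1,6-bisphosphatase. Ppargc1a encodes the coactivator PGC-1α, which raises transcription of the gluconeogenic genes in fasting. Txnip encodes thioredoxin-interacting protein, which limits glucose uptake and is induced by glucose through the transcription factor ChREBP. Glucagon and cyclic AMP raise Pck1 and G6pc mRNA, insulin lowers both, and sugar raises Pklr.

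The promoters of 4 genes are printed because they belong to genes that these hormone and sugar inputs are known to reach and that passed the test in at least 1 comparison below. All 9 genes had a RefSeq promoter, with 15 start sites in all. Each line gives the 200 bases that precede a RefSeq transcription start on the plus strand of GRCm38.p6, 5′ to 3′, with matches to the searched motifs in capitals.
G6pc, chr11:101367516-101367715: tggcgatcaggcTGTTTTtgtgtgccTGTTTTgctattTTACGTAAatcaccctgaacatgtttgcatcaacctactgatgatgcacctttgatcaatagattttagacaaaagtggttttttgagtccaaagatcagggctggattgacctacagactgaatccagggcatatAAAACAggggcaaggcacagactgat
Pck1, chr2:173152873-173153072: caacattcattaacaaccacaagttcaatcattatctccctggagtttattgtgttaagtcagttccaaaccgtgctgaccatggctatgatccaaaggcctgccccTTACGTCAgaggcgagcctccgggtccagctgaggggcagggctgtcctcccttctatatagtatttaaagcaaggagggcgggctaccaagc
Pklr, chr3:89136423-89136622: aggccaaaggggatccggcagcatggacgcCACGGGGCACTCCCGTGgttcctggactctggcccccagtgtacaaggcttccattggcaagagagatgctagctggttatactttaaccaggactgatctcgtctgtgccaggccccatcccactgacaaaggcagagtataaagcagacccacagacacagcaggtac
Txnip, chr3:96557757-96557956: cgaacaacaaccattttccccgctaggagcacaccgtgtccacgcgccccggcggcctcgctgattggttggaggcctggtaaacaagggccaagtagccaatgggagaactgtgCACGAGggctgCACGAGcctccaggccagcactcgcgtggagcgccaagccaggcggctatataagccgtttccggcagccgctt

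The motifs were chosen after these windows were seen, and both strands were searched in the same 200-base window of all 32851 RefSeq starts. In Pck1 the capitals mark TTACGT from base -93, counted back from the start, and TGACG read on the minus strand from -90 to -86. These matches overlap and together form the cyclic AMP response element. TGACG was found in 15.7% and TTACGT in 1.94% of all windows. In G6pc, TTACGT stood on both strands between -162 and -155, and TGTTTT, the core bound by FOXO factors, stood at -188 and -174 and, on the minus strand, at -26. TGTTTT was found in 15.3% of windows. Pklr has 2 start sites here, and the downstream one, used by the liver enzyme, had a match to the carbohydrate response element, searched as the E-box parts CANGNG and CNCNTG with 5 bases between them, from -170 to -154. That motif was found in 0.356% of windows. Txnip had CACGAG, a related E-box form, from -85 and from -74, against 4.41% of all windows with at least 1 match. A match is a description of the letters and says nothing of binding in these livers.

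The libraries held between 13269792 and 20624803 counted reads each. Ercc1 itself had 2.06 to 4.46 CPM (a gene's counted reads scaled to a library of standard size) in the 12 wild-type libraries and 1.08 to 2.33 in the 12 mutant libraries, with medians of 3.04 and 1.44. Levels below are CPM on library sizes scaled with TMM, and they compare libraries for 1 gene, not genes with each other. A gene is called higher or lower where its adjusted p from edgeR's quasi-likelihood test is under 0.05 across 12690 genes tested, among them all 9 studied here. Whether replicates are separate animals is not stated in the labels, so each p-value speaks only for the variation among these libraries, which may be technical. Hepatocyte markers summed to 58460 CPM or more in every library. Markers of Kupffer cells and macrophages ranged from 82.6 to 156 CPM in wild type at 16 weeks, from 146 to 262 at 104 weeks and from 155 to 336 in mutants, with none of the 9 markers at 0 in any group. In whole tissue, fewer cells of a type and less RNA per cell cannot be told apart. Of 5 markers of T and NK cells, 0 passed the filter on low counts.

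Restriction in wild-type liver lowered 3 of the 9 genes, Pck1, Pcx and Pfkfb1, where 13.6% of all genes tested were called, 6.3% higher and 7.3% lower. In mutant liver restriction lowered Pck1 alone of the 9, where 11.2% of all genes were called, 4.91% higher and 6.33% lower. Under free feeding at 16 weeks the mutant had less Pcx than wild type, the 1 member called where 9.94% of genes were (5.1% higher and 4.85% lower). Under restriction it had less G6pc and less Pklr, 2 members called where 18.3% of genes were (9.58% higher and 8.7% lower). At 104 weeks, wild-type liver had 5.08-fold more Pfkfb3 and less Pcx than at 16 weeks, 2 members called where 10.1% of genes were (5.13% higher and 5% lower). Between 7 and 16 weeks in mutants, Txnip fell, 1 member called where 0.686% of genes were (0.355% higher and 0.331% lower). The effect of restriction differed by genotype for Pcx, 1 member called where 1.5% of genes were (0.906% with a positive and 0.591% with a negative difference). Fbp1 and Ppargc1a passed edgeR's test in none of the 7 comparisons.

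**Figure D1:**
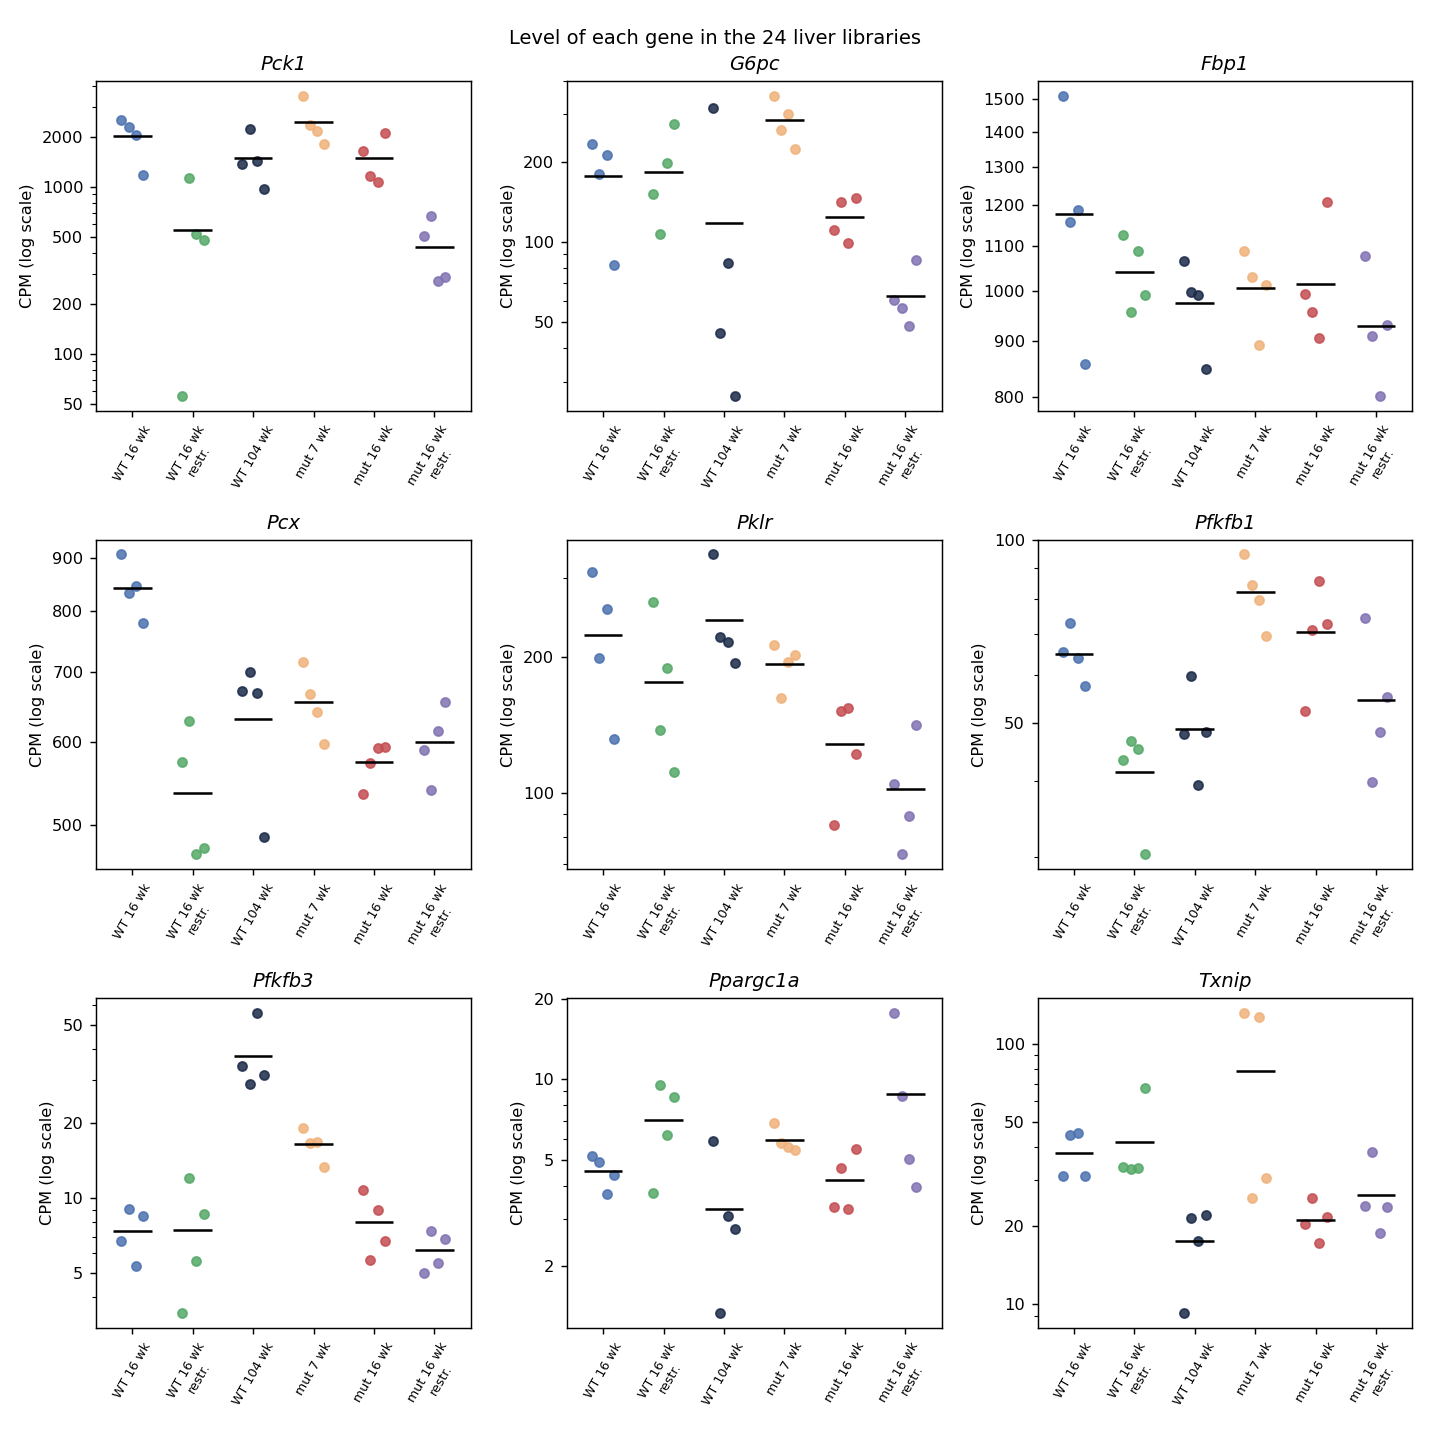
CPM of each of the 9 genes (log axis) in every library of the 6 groups, with points for libraries and horizontal lines for group means. The Pck1 means are lowest in the 2 restricted groups, and Pfkfb3 sits at 28.9 CPM or more in all 4 wild-type libraries at 104 weeks and at 19.2 or less in all others.

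Pck1 makes phosphoenolpyruvate from oxaloacetate and is the enzyme most often read as a measure of gluconeogenic transcription (GRCm38 chromosome 2, 173153048 to 173159273, plus strand). In freely fed wild type at 16 weeks the libraries had 2520.3, 2292, 2038 and 1181 CPM (2008 ± 586, SD, n = 4). In restricted wild type they had 56.2, 1136, 519 and 480.3 CPM (548 ± 445, SD, n = 4). The groups did not overlap, although replicate 2 of the restricted group came close to the lowest freely fed library, and replicate 1 stood far below all others. The log2 change was -1.87 ± 0.54 (SE), which is 3.66-fold lower (edgeR adjusted p = 0.0264). Freely fed mutants had 1649.8, 1168, 1062 and 2102 CPM (1495 ± 478, SD, n = 4), and restricted mutants had 505, 666, 274 and 289 CPM (433 ± 187, SD, n = 4). Again every restricted library was below every freely fed one, by 3.45-fold in the fit (log2 -1.79 ± 0.54, edgeR adjusted p = 0.0371). The difference between the log2 changes of the genotypes was 0.09 with a standard error of 0.74 and did not pass (edgeR adjusted p = 0.975). Both calls depended on single libraries. In wild type it was lost in 5 of 8 fits that left out 1 library, with values from -2.50 to -1.50, and with only the libraries compared (edgeR adjusted p = 0.170). In mutants it was lost in 6 of 8, with edgeR adjusted p up to 0.100.

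Neither genotype nor age moved Pck1 past the test. The highest group was the mutant at 7 weeks, with 3497, 2331, 2149 and 1803 CPM (2445 ± 735, SD, n = 4), and wild type at 104 weeks had 1363, 2225, 1426 and 964 CPM (1495 ± 528, SD, n = 4). In order of their means, from mutants at 7 weeks down to restricted mutants, each group overlapped the next. The coefficient of variation of Pck1 was 81.1% in restricted wild type.

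G6pc releases free glucose from glucose-6-phosphate and so ends both gluconeogenesis and glycogen breakdown (chromosome 11, 101367561 to 101377903, plus strand). It shares hormonal inputs with Pck1, and restriction gave no called change of it in either genotype. Freely fed wild type at 16 weeks had 234, 179, 211 and 81.7 CPM (176 ± 66.9, SD, n = 4), and restricted wild type had 152, 107, 198 and 275 CPM (183 ± 71.8, SD, n = 4). These groups overlapped almost wholly (log2 difference 0.05 ± 0.51, edgeR adjusted p = 0.960). Freely fed mutants had 111, 141, 98.8 and 146 CPM (124 ± 22.8, SD, n = 4), and restricted mutants had 60.8, 56.7, 48.4 and 85.5 CPM (62.9 ± 16.0, SD, n = 4). Each restricted mutant library was below each freely fed one, yet the difference missed the threshold (log2 -0.98 ± 0.52, edgeR adjusted p = 0.252). With only those 8 libraries in the fit the adjusted p was 0.00773.

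Between the restricted groups, every mutant library had less G6pc than every wild-type library, 2.91-fold lower in the fit (log2 -1.54 ± 0.53, edgeR adjusted p = 0.0473). Of the members, G6pc alone did not overlap between these groups, where 15.8% of all genes did not. This call was lost in 7 of 8 fits without 1 library, with edgeR adjusted p from 0.0398 to 0.135, and also with other size factors or without the filter on low counts. The highest G6pc levels were in mutants at 7 weeks, at 352, 263, 302 and 222 CPM (285 ± 55.2, SD, n = 4), all above every mutant library at 16 weeks. The fitted difference of -1.20 ± 0.52 on the log2 scale did not pass (edgeR adjusted p = 0.421). Wild type at 104 weeks was the most uneven group, at 317, 45.8, 83.5 and 26.6 CPM. Without the library at 317 the fall with age was -1.77 on the log2 scale (edgeR adjusted p = 0.00488), whereas with it the value was -0.58 (edgeR adjusted p = 0.538).

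Fbp1 removes a phosphate from fructose-1,6-bisphosphate (chromosome 13, 62864753 to 62888282, minus strand). Of the 9 genes it had the smallest ratio between its highest and lowest group. Group means ran from 930 ± 113 CPM in restricted mutants to 1178 ± 267 CPM in freely fed wild type at 16 weeks (SD, n = 4 each), a ratio of 1.27. The largest log2 difference among the 6 comparisons of groups was -0.27 ± 0.14, for wild type at 104 against 16 weeks (edgeR adjusted p = 0.229). All neighbouring groups overlapped.

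Pcx is the mitochondrial enzyme that makes oxaloacetate from pyruvate, which supplies both gluconeogenesis and the citric acid cycle (chromosome 19, 4510472 to 4621752, plus strand). Freely fed wild type at 16 weeks had 907, 834, 846 and 779.9 CPM (841 ± 51.9, SD, n = 4), above every library of the other 5 groups. Restricted wild type had 575, 629, 469 and 475 CPM (537 ± 78.3, SD, n = 4), 1.57-fold lower (log2 -0.65 ± 0.12, edgeR adjusted p = 0.000687). Freely fed mutants had 536, 573, 593 and 593 CPM (574 ± 27.04, SD, n = 4), 1.47-fold below freely fed wild type of the same age (log2 -0.55 ± 0.12, edgeR adjusted p = 0.00307). Both calls held in every alternative fit and with each library left out in turn. Wild type at 104 weeks had 672, 700.1, 668 and 487 CPM (632 ± 97.7, SD, n = 4), 1.33-fold below 16 weeks (log2 -0.41 ± 0.12, edgeR adjusted p = 0.0266). This call was lost in 4 of 8 fits without 1 library (edgeR adjusted p up to 0.0794), which were those without the library at 487, where the fall was -0.31, or without 16-week replicate 1, 2 or 3.

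In mutants restriction gave no called change in Pcx. Restricted mutants had 590.2, 539.6, 615 and 655 CPM (599.8 ± 48.1, SD, n = 4), and the log2 difference from freely fed mutants was 0.06 ± 0.12 (edgeR adjusted p = 0.800). The change under restriction differed between genotypes by 0.71 ± 0.17 on the log2 scale (edgeR adjusted p = 0.0295), although this call was lost in 8 of 16 fits without 1 library (edgeR adjusted p from 0.0113 to 0.0655). The 3 comparisons that called Pcx lower share the freely fed wild-type libraries at 16 weeks, so they are not independent of each other. Red cell markers were also highest in that group and in some libraries at 104 weeks: their sum was 1258 to 2287 CPM there, 368 to 823 in restricted wild type, 733 to 3323 at 104 weeks and 343 to 879 in mutants. Of 5 such markers, 3 were called lower with restriction in wild type and 4 were called lower in freely fed mutants. In these comparisons 7.3% and 4.85% of all genes tested were called lower. The part of the red cell markers in the Pcx result was not tested.

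Pklr encodes the liver form of pyruvate kinase, the last step of glycolysis (chromosome 3, 89136142 to 89146784, plus strand). Its carbohydrate response element is printed above. Freely fed wild type at 16 weeks had 308, 199, 256 and 132 CPM (224 ± 75.7, SD, n = 4), and freely fed mutants had 85.04, 152, 155 and 122 CPM (128 ± 32.5, SD, n = 4). The lowest wild-type library lay within the mutant range, and the difference missed the threshold (log2 -0.80 ± 0.27, edgeR adjusted p = 0.0640). Restricted wild type had 264, 138, 189 and 112 CPM (176 ± 67.2, SD, n = 4), and restricted mutants had 105, 73.5, 89.4 and 142 CPM (102 ± 29.1, SD, n = 4). This difference was nearly as large and passed, though the groups overlapped (log2 -0.78 ± 0.27, edgeR adjusted p = 0.0475). The difference between these genotype effects was 0.02 with a standard error of 0.38 and did not pass (edgeR adjusted p = 0.991). The call under restriction was lost in 5 of 8 fits without 1 library (edgeR adjusted p from 0.0200 to 0.187).

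Restriction gave no called change in Pklr in either genotype, at -0.35 ± 0.27 in wild type and -0.33 ± 0.27 in mutants on the log2 scale (edgeR adjusted p = 0.422 and 0.495). Mutants at 7 weeks had 212, 163, 195 and 203 CPM, all above the mutant libraries at 16 weeks, and wild type at 104 weeks had 337, 221, 216 and 194 CPM. Neither age comparison passed. Pklr overlaps Hcn3 on the opposite strand, and no source used here states whether counting used strand, so reads of the pair cannot be told apart. The same holds for Pcx with Lrfn4 and Pfkfb1 with Apex2, and for antisense transcripts at Txnip and Pfkfb3.

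Pfkfb1 is the main liver form of the fructose-2,6-bisphosphate enzyme, switched by glucagon toward removal of that molecule (chromosome X, 150588229 to 150643878, plus strand). Freely fed wild type at 16 weeks had 65.4, 73.0, 63.9 and 57.6 CPM (65.0 ± 6.33, SD, n = 4), and restricted wild type had 43.5, 46.6, 45.3 and 30.3 CPM (41.4 ± 7.49, SD, n = 4). The groups did not overlap, and the level was 1.57-fold lower under restriction (log2 -0.65 ± 0.18, edgeR adjusted p = 0.0162). The call was lost without freely fed replicate 2 (log2 -0.59, edgeR adjusted p = 0.0538) or restricted replicate 4 (log2 -0.52, edgeR adjusted p = 0.0749). Freely fed mutants had 52.2, 71.2, 85.6 and 72.8 CPM (70.4 ± 13.8, SD, n = 4), and restricted mutants had 74.5, 39.95, 48.2 and 55.1 CPM (54.4 ± 14.7, SD, n = 4). Here the groups overlapped because restricted replicate 1 had 74.5 CPM. The log2 difference was -0.37 ± 0.18 (edgeR adjusted p = 0.187), and without that replicate it was -0.56 (edgeR adjusted p = 0.0434). The highest group was the mutant at 7 weeks, at 82.1 ± 10.4 CPM (SD, n = 4).

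Pfkfb3 encodes the inducible form of the enzyme, with strong kinase and weak phosphatase activity, which is abundant in proliferating cells and activated macrophages (chromosome 2, 11471433 to 11554077, minus strand). It showed the largest change of any member. Wild type at 104 weeks had 34.2, 28.9, 55.7 and 31.4 CPM (37.5 ± 12.3, SD, n = 4), against 6.72, 9.05, 5.33 and 8.50 CPM at 16 weeks (7.40 ± 1.70, SD, n = 4). No library at 104 weeks came near the 16-week range. The log2 change was 2.35 ± 0.29 (edgeR adjusted p = 9.51e-06), and it stayed past the threshold in every alternative fit and with each library left out.

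In mutants the older group had the lower Pfkfb3 levels. Mutants at 7 weeks had 19.2, 16.6, 16.8 and 13.3 CPM (16.5 ± 2.40, SD, n = 4), all above mutants at 16 weeks with 10.8, 5.64, 8.98 and 6.74 CPM (8.05 ± 2.32, SD, n = 4). The log2 difference of -1.04 ± 0.29 did not pass with all 24 libraries in the fit (edgeR adjusted p = 0.104). It passed with only the libraries compared (edgeR adjusted p = 0.00716) and with DESeq2 (adjusted p = 0.0303). Among the 16-week groups, restricted wild type had 3.46 to 12.1 CPM and restricted mutants 5.02 to 7.35 CPM, and none of the 4 comparisons between 16-week groups called Pfkfb3. Between freely fed mutants and wild type at 16 weeks the log2 difference was 0.12 ± 0.29 (edgeR adjusted p = 0.850).

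Macrophage markers moved with age in wild type as well, 3 of 9 being called higher, where 5.13% of all genes tested were. Restricted mutants had macrophage marker sums of 236 to 336 CPM and 5.02 to 7.35 CPM of Pfkfb3. Wild type at 104 weeks had sums of 146 to 262 CPM and 28.9 to 55.7 CPM of Pfkfb3. B and plasma cell markers were highest at 104 weeks, with sums of 13.8 to 17.6 CPM against at most 6.23 in any other library, and both tested were called higher. Of 3 neutrophil markers tested, 2 were called higher, although the summed level of the list of 4 overlapped, at 8.08 to 10.99 CPM at 104 weeks and 7.98 to 10.5 at 16 weeks, where Retnlg was at 0. The pancreatic markers Prss2, Cpa1 and Pnlip were at 0 in every group but that of 104 weeks. The part of these cells in the Pfkfb3 result was not tested.

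Ppargc1a was a low-level transcript here (chromosome 5, 51454250 to 51567726, minus strand). Restricted mutants had 17.7, 8.69, 5.02 and 3.95 CPM (8.84 ± 6.24, SD, n = 4), against 3.34, 4.67, 3.28 and 5.47 CPM in freely fed mutants (4.19 ± 1.07, SD, n = 4). The groups overlapped and replicate 1 carried the highest value. The log2 difference was 1.08 ± 0.39 (edgeR adjusted p = 0.0765). DESeq2 called it (adjusted p = 0.0384), as did edgeR without restricted mutant replicate 3 (1.27, adjusted p = 0.0396) or 4 (1.32, adjusted p = 0.0271). Without replicate 1 it was 0.49. Restricted wild type had 3.75, 9.53, 6.16 and 8.62 CPM (7.01 ± 2.60, SD, n = 4) against 5.17, 4.92, 3.71 and 4.39 CPM when freely fed, a log2 difference of 0.62 ± 0.39 that did not pass (edgeR adjusted p = 0.311). In both genotypes the restricted group had lower Pck1 and a higher Ppargc1a mean than the freely fed group of the same age. Neither Ppargc1a difference passed edgeR's test with all libraries in the fit, and the groups overlapped in both genotypes. Pck1 and Ppargc1a correlated at -0.12 over the 24 libraries and at 0.45 within groups. The part of Ppargc1a in the Pck1 result was not tested. Wild type at 104 weeks had the lowest Ppargc1a mean, 3.28 ± 1.91 CPM (SD, n = 4).

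Txnip had its highest and most divided levels in mutants at 7 weeks, where the libraries had 131, 25.6, 126 and 30.4 CPM (78.2 ± 58.1, SD, n = 4) (chromosome 3, 96557957 to 96561883, plus strand). At 16 weeks freely fed mutants had 20.3, 25.5, 17.2 and 21.6 CPM (21.1 ± 3.46, SD, n = 4). The groups did not overlap, though the lowest younger library stood only just above the highest older one, and the log2 change of -1.89 ± 0.44 passed (edgeR adjusted p = 0.0474). The fall rested on replicates 1 and 3 of the younger group: without either, it was -1.51 (edgeR adjusted p = 0.222) and -1.56 (edgeR adjusted p = 0.201). In all, 6 of 8 fits without 1 library lost the call.

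In wild type the old libraries had 9.31, 21.5, 17.4 and 22.0 CPM of Txnip (17.6 ± 5.86, SD, n = 4), all below the 16-week range of 31.0 to 45.4 CPM (38.0 ± 8.13, SD, n = 4). That difference did not pass with all libraries in the fit (log2 -1.11 ± 0.43, edgeR adjusted p = 0.112). It passed with only the libraries compared (edgeR adjusted p = 0.0213) and with DESeq2 (adjusted p = 0.0397). Freely fed mutants at 16 weeks were also wholly below wild type of that age, at -0.85 ± 0.43 on the log2 scale (edgeR adjusted p = 0.236, and 0.00273 with only the libraries compared). Restriction gave no called change in either genotype. In restricted wild type, 3 libraries lay at 33.0 to 33.6 CPM and replicate 4 at 67.5.

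**Figure D2:**
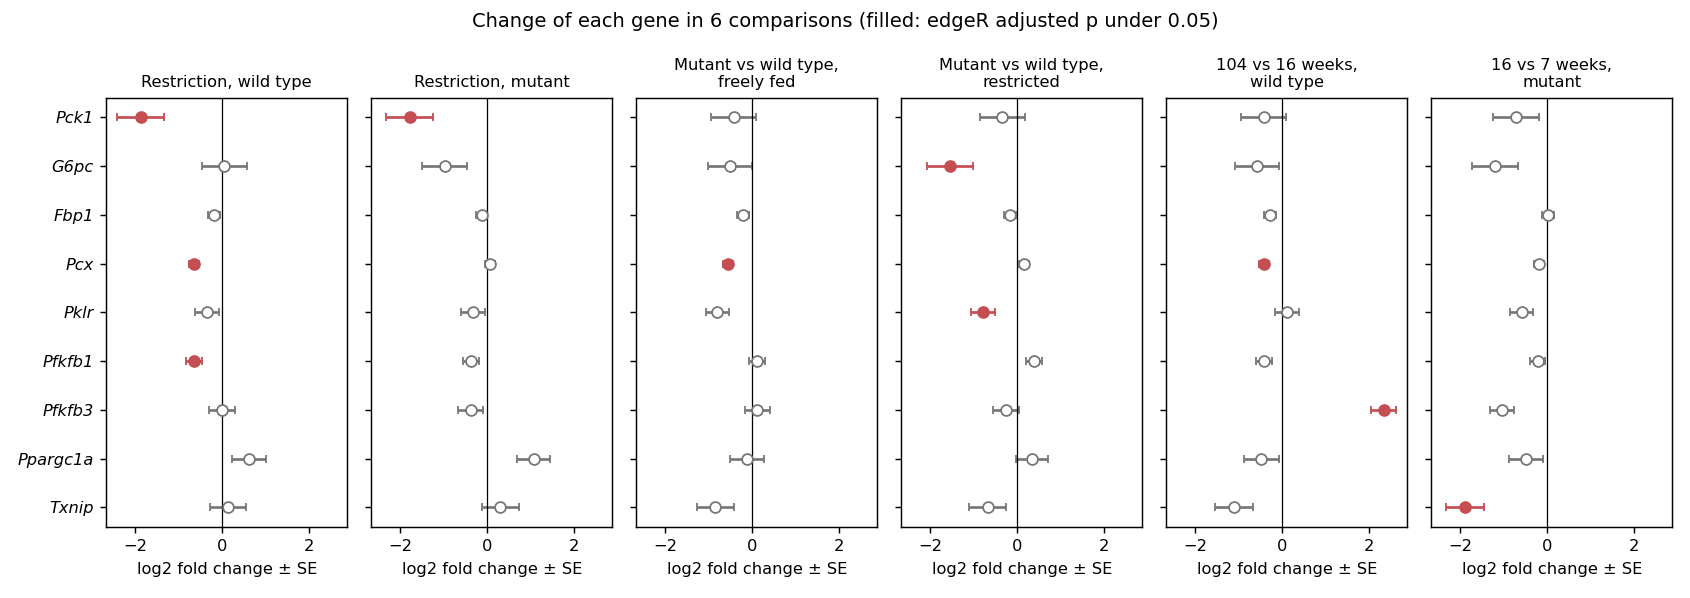
Log2 change with its SE for each of the 9 genes in the 6 comparisons of groups, with filled points where the edgeR adjusted p was under 0.05. Pfkfb3 with age in wild type (2.35) and Pck1 under restriction (-1.87 and -1.79) stand furthest from 0 among the changes past the threshold, together with Txnip in mutants from 7 to 16 weeks (-1.89).

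Counts of members whose groups did not overlap give a second reading that needs no model of the spread. They were 3 for restriction in wild type (17.2% of all genes), 2 for restriction in mutants (17.3%), 2 for genotype under free feeding (22.5%), 3 for age in wild type (16.9%) and 5 for age in mutants (12.4%). The 5 in mutants were G6pc, Pcx, Pklr, Pfkfb3 and Txnip, each lower at 16 than at 7 weeks. Of these only Txnip passed the test. Pcx and Txnip were parted only narrowly. The lowest 7-week library had 597 CPM of Pcx and 25.59 of Txnip, and the highest 16-week library had 593 and 25.53. For Pcx the log2 difference was -0.19 ± 0.12 (edgeR adjusted p = 0.621).

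Around the 9 genes, 11 lists with 144 genes of glucose metabolism were read in the same fits, and the members are counted in the lists they belong to. With restriction in wild type, 6.3% of all genes tested were called higher and 7.3% lower. Restriction in wild type called 3 of 11 tested gluconeogenic enzymes lower, which were Pck1, Pcx and Got2, the mitochondrial aspartate aminotransferase (436 ± 20.2 to 337 ± 20.9 CPM, SD, n = 4, log2 -0.37 ± 0.10, edgeR adjusted p = 0.0131). No gene of that list was called higher, while 2 were at an unadjusted p under 0.05 and DESeq2 called 1. Of 15 glycogen genes, 5 fell, among them the glycogen-binding protein gene Stbd1 (45.6 ± 2.05 to 22.7 ± 5.48 CPM, SD, n = 4, log2 -1.002 ± 0.26, edgeR adjusted p = 0.0135) and the phosphorylase kinase subunit gene Phkb (log2 -0.97, edgeR adjusted p = 0.000477). The number of glycogen genes that fell was 2 without restricted replicate 4 and 3 without freely fed replicate 1 or 3, and Stbd1 lost its call in 1 of 8 fits without 1 library (edgeR adjusted p = 0.0576). Of 22 glycolytic enzyme genes, 5 rose, which were Aldoa, Aldoc, Pfkp, Pkm and Gpi1, with log2 changes from 0.76 for Pkm to 1.42 for Pfkp. Without 1 library the number that rose was 2 to 6, and it was 2 or 3 without any 1 of the 4 freely fed libraries or without restricted replicate 1 or 4. Pkm, Pfkp and Aldoc encode forms that are typical of tissues other than the hepatocyte. Pfkp was a low-level transcript, at 1.11 ± 0.546 CPM in freely fed and 2.94 ± 0.937 in restricted wild type (SD, n = 4). The glycerol channel gene Aqp9, which admits a gluconeogenic substrate, fell from 105 ± 7.62 to 62.0 ± 18.9 CPM (SD, n = 4, log2 -0.76 ± 0.17, edgeR adjusted p = 0.00497).

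In mutants restriction called 3 gluconeogenic enzymes higher and Pck1 lower, where 4.91% of all genes tested were called higher and 6.33% lower. The 3 were Got1, Mdh1 and Mdh2, enzymes of the malate and aspartate exchange between mitochondria and cytosol. Got1, the cytosolic aspartate aminotransferase, rose from 218 ± 16.6 to 1153 ± 515 CPM (SD, n = 4, log2 2.40 ± 0.34, edgeR adjusted p = 4.77e-05). Of 22 glycolytic genes, 7 rose and 0 fell (1 fell at an unadjusted p under 0.05 and 0 by DESeq2). They included Gapdh, Pgk1, Eno1 and Tpi1, which serve both routes. Gapdh was a low-level transcript here, at 5.77 to 9.19 CPM in freely fed and 10.5 to 14.5 CPM in restricted mutants. The cause of that low level was not tested. Ldhb, a lactate dehydrogenase subunit gene, was also among the 7 and rose from 5.75 ± 1.31 to 19.0 ± 3.18 CPM (SD, n = 4, log2 1.72 ± 0.17, edgeR adjusted p = 1.82e-07). Serine dehydratase (Sds), which feeds serine into pyruvate, rose from 135 ± 18.8 to 427 ± 208 CPM (SD, n = 4, log2 1.66 ± 0.36, edgeR adjusted p = 0.00375), and Mpc1, a pyruvate carrier subunit gene, rose by 0.60 ± 0.12 on the log2 scale (edgeR adjusted p = 0.000996). Among the regulators 4 of 25 rose, including Sik1, a kinase gene induced by cyclic AMP (log2 2.27, edgeR adjusted p = 0.000268), and the number was 2 to 6 with 1 library left out, the lowest without restricted replicate 2. Stbd1 fell in mutants too (log2 -1.72 ± 0.27, edgeR adjusted p = 0.000115). The Ppp1r3g value, 6.57 on the log2 scale, came with 70.4, 6.17, 1.81 and 2.20 CPM in the restricted libraries, so that 1 library held most of the signal.

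**Figure D3:**
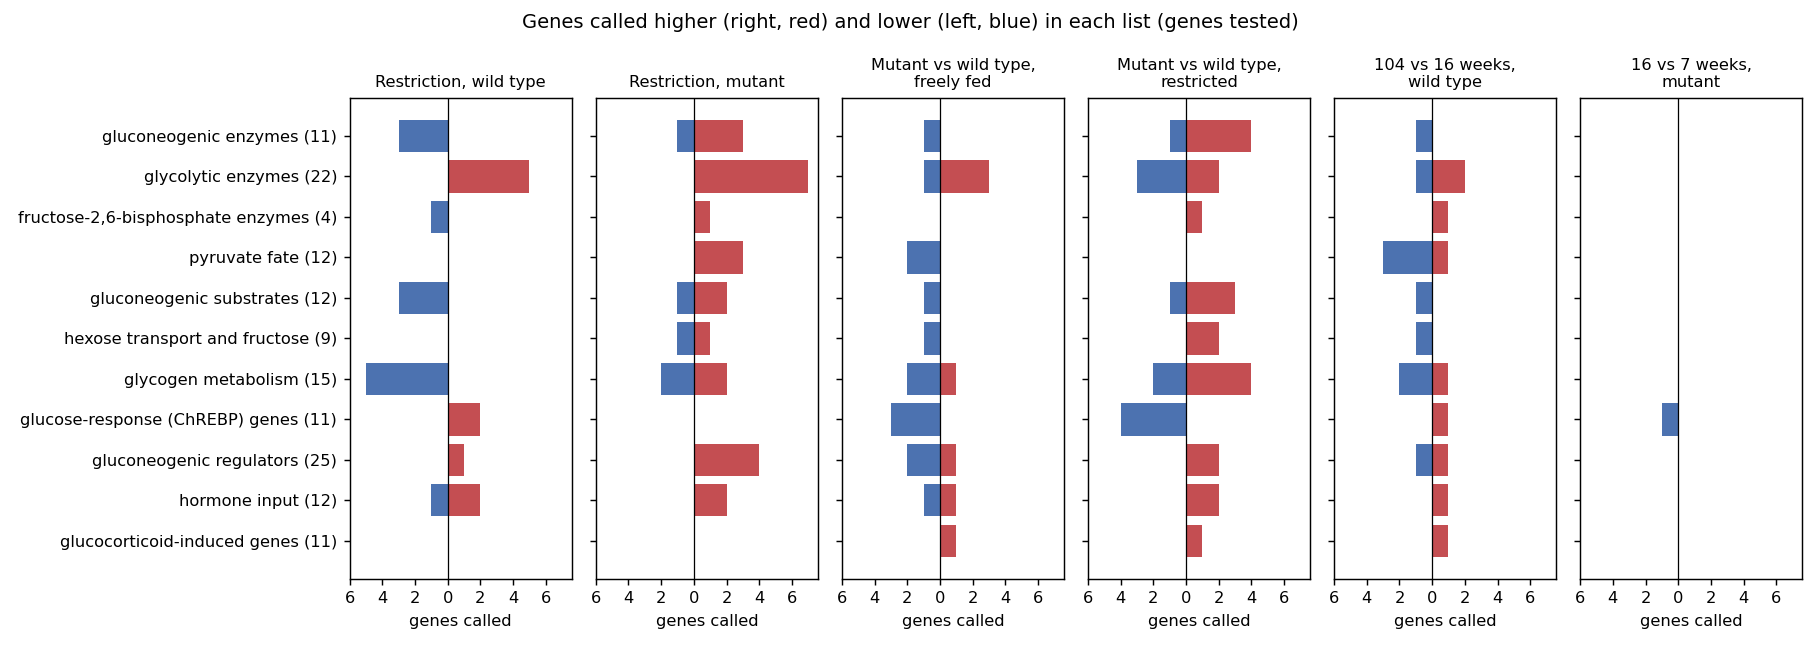
Number of genes called higher (right of 0) and lower (left of 0) by edgeR in each of the 11 lists of glucose metabolism for the 6 comparisons of groups. Restriction raised 5 and 7 of 22 glycolytic genes in wild type and mutants (2 to 6 and 6 to 7 with 1 library left out), and the glucose-response list has only lower calls in both genotype comparisons. With restriction, 6.3% and 4.91% of all genes tested were called higher in wild type and mutants.

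The glucose-response list, with genes known as ChREBP targets or partners, includes Pklr, G6pc and Txnip. In mutants it had 3 of 11 genes called lower under free feeding (Klf10, Gpd1 and Khk) and 4 of 11 under restriction (Mlxipl, Klf10, Pklr and G6pc), and 0 called higher in each. By DESeq2 and at an unadjusted p under 0.05, too, 0 were higher. The number called lower depended on single libraries: under free feeding it was 1 without mutant replicate 1, and under restriction it ranged from 2 to 6 and was 2 without mutant replicate 1, 2 or 3 or wild-type replicate 1 or 3. Khk lost its call in 5 and Gpd1 in 3 of 8 such fits, and Klf10 in 0 of 8 in either feeding state. The list's median log2 differences were -0.54 and -0.66, against 0.02 and -0.03 over all genes tested. Among all those genes, 4.85% were called lower in mutants under free feeding and 8.7% under restriction, and 5.1% and 9.58% higher. Klf10, a transcription factor gene, fell from 15.7 ± 3.17 to 7.88 ± 1.84 CPM (SD, n = 4) under free feeding (log2 -0.998 ± 0.22, edgeR adjusted p = 0.00332). Under restriction it was 27.2 ± 4.53 CPM in wild type and 10.1 ± 2.77 in mutants (SD, n = 4, log2 -1.44 ± 0.21, edgeR adjusted p = 4.20e-05). Mlxipl, the gene for ChREBP itself, was lower in restricted mutants than in restricted wild type (log2 -1.22, edgeR adjusted p = 0.000481). Beside these results, macrophage markers were higher in mutants, 6 of 9 under free feeding and 9 of 9 under restriction, and their part in them was not tested.

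Other genes also parted the genotypes. Gbe1, the glycogen branching enzyme gene, was 155 ± 16.4 CPM in freely fed wild type and 72.04 ± 13.9 in freely fed mutants (SD, n = 4, log2 -1.11 ± 0.16, edgeR adjusted p = 3.29e-05), and Aldoc was 6.79 ± 1.12 and 17.5 ± 1.67 CPM (SD, n = 4, log2 1.37 ± 0.19, edgeR adjusted p = 2.50e-05). Between restricted groups, 4 of 11 tested genes of the gluconeogenic enzyme list were higher in mutants (Got1, Got2, Mdh2 and G6pc3). The number was 2 to 5 with 1 library left out (2 without mutant replicate 1). In that list G6pc was lower. Between these groups 9.58% of all genes tested were called higher and 8.7% lower in mutants. G6pc3 was a low-level transcript, at 3.33 ± 0.273 CPM in restricted wild type and 5.29 ± 0.898 in restricted mutants (SD, n = 4). Sik1 was 119.8 ± 24.7 CPM in restricted mutants and 21.6 ± 11.5 in restricted wild type (SD, n = 4, log2 2.47 ± 0.38, edgeR adjusted p = 9.69e-05). Beyond Pcx, the effect of restriction differed by genotype for Mdh1 (0.60 ± 0.15, edgeR adjusted p = 0.0407), Ldhb (1.22 ± 0.25, edgeR adjusted p = 0.0110) and Aldoc (-1.24 ± 0.26, edgeR adjusted p = 0.0128), each given as the change in mutants minus that in wild type on the log2 scale. The Mdh1 call was lost in 14 of 16 fits without 1 library (edgeR adjusted p from 0.0155 to 0.0902), and those of Ldhb and Aldoc in 0 of 16.

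**Figure D4:**
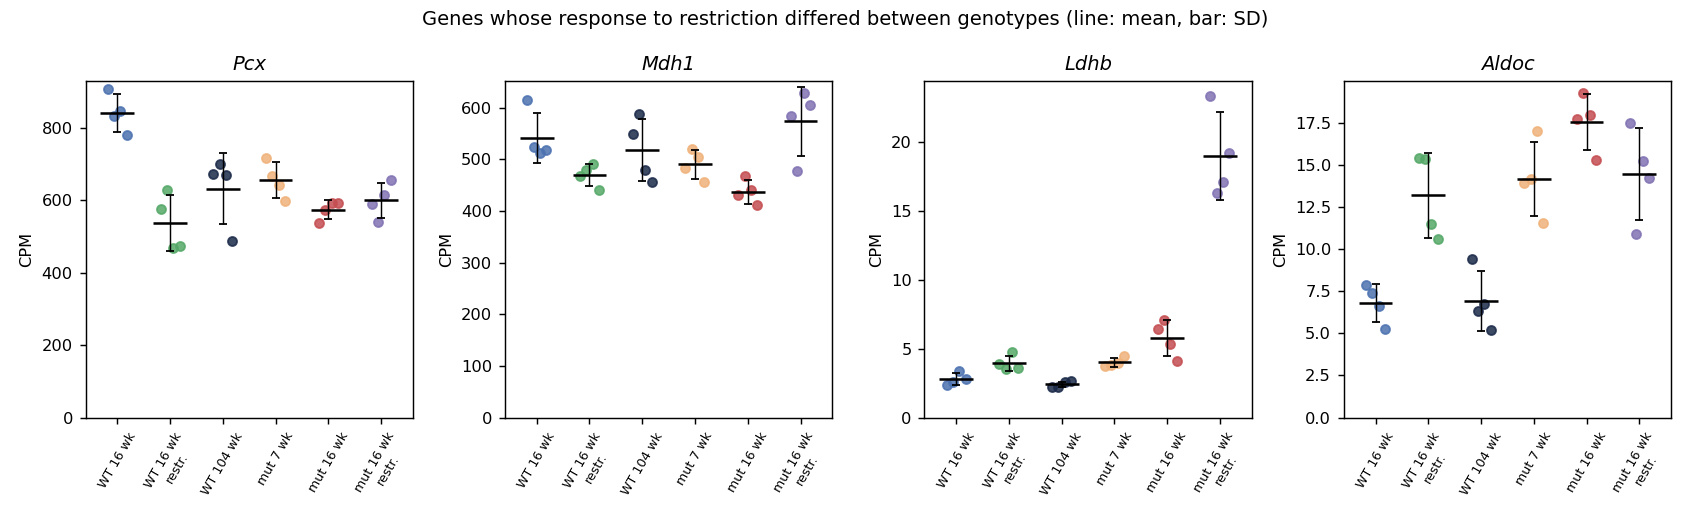
CPM of Pcx, Mdh1, Ldhb and Aldoc in every library of the 6 groups, with points for libraries, horizontal lines for group means and bars for SD (n = 4). At 16 weeks the Pcx mean falls from 841 to 537 CPM with restriction in wild type and runs from 574 to 599.8 in mutants, while Ldhb is highest in restricted mutants at 19.0 CPM.

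With age in wild type, Pfkfb3 was the 1 fructose-2,6-bisphosphate enzyme gene of 4 that was called. In that comparison 5.13% of all genes tested were called higher and 5% lower. Pyruvate genes had 1 of 12 higher and 3 lower: Pdhb rose by 0.53 on the log2 scale, while Mpc1, Pdha1 and Pdk4 fell. Without 1 library, 0 to 1 were called higher and 1 to 2 lower, and the Pdhb call was lost in 6 of 8 such fits (edgeR adjusted p up to 0.121). Pdk4, which switches off pyruvate dehydrogenase, fell from 3.03 ± 0.154 to 0.587 ± 0.149 CPM (SD, n = 4, log2 -2.36 ± 0.68, edgeR adjusted p = 0.0303), a call lost in 7 of 8 fits without 1 library (edgeR adjusted p from 0.0494 to 0.0759). Ppp1r3b, which brings a phosphatase to glycogen, fell from 128 ± 13.1 to 47.4 ± 19.9 CPM (SD, n = 4, log2 -1.43 ± 0.23, edgeR adjusted p = 0.000235). Glycerol kinase (Gk) fell from 116 ± 9.19 to 56.0 ± 16.8 CPM (SD, n = 4, log2 -1.05 ± 0.22, edgeR adjusted p = 0.00330). From 7 to 16 weeks in mutants, the only gene called in any of the 11 lists was Txnip, where 0.686% of all genes tested were called.

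Genes whose log2 CPM ran most like each member over the 24 libraries are given as a description, since libraries of a group share their condition. Pfkfb3 ran closest to Mbd1 (Pearson r = 0.90) and Nr1d1 (r = 0.89). Nr1d1 encodes the clock repressor REV-ERBα. It had 52.7 ± 7.63 CPM in wild type at 104 weeks and 7.41 ± 1.96 in mutants at 7 weeks (SD, n = 4). Means in the other groups were 4.69 CPM or less. The top 2 means came in the same order for both genes. For Nr1d1, freely fed mutants at 7 weeks (5.78 to 10.2 CPM) overlapped those at 16 weeks (3.28 to 7.05 CPM). Nr1d1 rose with age in wild type (log2 3.75 ± 0.40, edgeR adjusted p = 1.85e-06). Restriction lowered it in wild type and mutants (log2 -1.68 and -1.40, edgeR adjusted p = 0.0152 and 0.0330), where Pfkfb3 was not called. The hour of collection is not given, so its part was not tested. Pck1 ran closest to the major urinary protein genes Mup22 and Mup10 (both r = 0.93), near-identical copies whose separate counts are uncertain. Mup22 fell under restriction as Pck1 did, from 1767 ± 500.04 to 120 ± 112 CPM in wild type (SD, n = 4, log2 -3.88 ± 0.74, edgeR adjusted p = 0.00159). Pklr ran closest to the liver glycogen phosphorylase gene Pygl (r = 0.89), Pfkfb1 to Rsrp1 (r = 0.89) and Pcx to Sema5b (r = 0.86), whose mean was 12.1 CPM in freely fed wild type at 16 weeks and at most 1.66 in the other groups. G6pc, Ppargc1a, Txnip and Fbp1 had weaker closest partners, at r = 0.75 (Ing3), 0.80 (Smim13), 0.75 (Cnr2) and 0.69 (Acrbp).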

How the data were processed

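Poly(A) RNA of 24 mouse liver samples was sequenced. The values deposited by the authors are raw counts of reads per gene. The submitters' processing notes name Trimmomatic 0.39, STAR 2.7.0f, featureCounts, Subread 1.6.4 and the build GRCm38.p6; the strand setting is not given in the sources used here. Gene positions come from GENCODE M21 on GRCm38, where the identifiers of all 22429 genes in the deposited table were found. Promoters come from RefSeq.

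Counts were scaled with TMM and tested with edgeR 4.0.16 (robust quasi-likelihood fit, R 4.3.3) over all 6 groups at once, with 18 residual degrees of freedom, after filterByExpr left 12690 genes, and p-values were adjusted by Benjamini-Hochberg over all of them. The 7 contrasts were restriction in each genotype, genotype in each feeding state at 16 weeks, age in each genotype, and the difference of the restriction effects. The fit was tested on simulated data. The alternatives were DESeq2 1.42.0, RLE size factors, no filter, a fit of only the libraries compared, a replicate block, and each library left out. All 9 members are named in every comparison; of each list, the largest called rise and fall among genes with a mean of at least 2 CPM, further list genes that were called being named after their values were seen. The closest genes are those with the highest Pearson r. The members and lists were chosen with earlier results of these data known. The 13 rows without a symbol are not described. Every pair of replicates differed by more than sampling noise, with chi-square at least 8.77 times its degrees of freedom.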

Additional observations from a re-analysis of the deposited data

Results flagged for a closer look

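Of 54 sets of 4 libraries (9 genes in 6 groups), 2 held a library whose gap to its neighbour, divided by the range of the group, was above Dixon's 95% critical value for 4 samples; chance gives about 1 in 20. Pcx in wild type at 104 weeks had its lowest library at 487 CPM (replicate 4, ratio 0.851). Txnip in restricted wild type had its highest library at 67.5 CPM (replicate 4, ratio 0.982).

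The effect of restriction differed between genotypes, by the interaction term in edgeR, for 4 genes of the lists. By that term 1.5% of all genes tested were called. The change in mutants minus that in wild type was 0.71 for Pcx, 0.60 for Mdh1, 1.22 for Ldhb and -1.24 for Aldoc on the log2 scale. Pcx fell in wild type and did not pass the test in mutants, Mdh1 and Ldhb rose in mutants and did not pass in wild type, and Aldoc rose in wild type and did not pass in mutants. With 1 library left out, the interaction call was lost in 14 of 16 fits for Mdh1 and 8 of 16 for Pcx, and in 0 of 16 for Ldhb and Aldoc.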

How the results depend on the processing

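Of the calls named for members, 3 kept their direction and their side of the threshold in every alternative and with each library left out: Pfkfb3 with age in wild type, Pcx with restriction in wild type and Pcx with genotype under free feeding. The number of members called moved as follows. For genotype under restriction (2 called) it was 0 with RLE size factors, 0 without the filter, 0 with the replicate block and 1 with only the libraries compared. For restriction in mutants (1 called) it was 0 without the filter, 2 with only the libraries compared and 2 with DESeq2. For age in mutants (1 called) it was 0 without the filter, 0 with the replicate block, 2 with only the libraries compared and 2 with DESeq2. For genotype under free feeding (1 called) it was 3 with only the libraries compared and 2 with DESeq2. Leaving out 1 library gave 1 to 3 members for restriction in wild type, 0 to 1 in mutants, 1 to 2 and 0 to 2 for genotype under free feeding and restriction, 1 to 3 and 0 to 1 for age in wild type and mutants, and 0 to 1 for the interaction. The cause was not tested. A fit of only the libraries compared rests on fewer samples and takes its spread from those libraries alone. Over genes with a mean of at least 2 CPM, the median coefficient of variation differed by group. It was 11.4% in freely fed wild type at 16 weeks, 10.2% in mutants at 7 weeks and 14.8% in freely fed mutants at 16 weeks. It was 22.5% in restricted wild type, 18.8% in wild type at 104 weeks and 18.2% in restricted mutants. Without the filter and with only the libraries compared, Pfkfb3 under restriction in wild type changed sign, to 0.0041 and 0.00046. On the log2 scale, 14 values that no fit called changed sign when a library was left out: for restriction in wild type, G6pc -0.21 to 0.25, Pfkfb3 -0.33 to 0.24 and Txnip -0.19 to 0.25; for genotype under free feeding, Pfkfb3 -0.0585 to 0.26, and under restriction, Pck1 -0.72 to 0.31, Pfkfb3 -0.50 to 0.0808 and Ppargc1a -0.24 to 0.58; for age, Pklr -0.0905 to 0.30 in wild type and Fbp1 -0.0796 to 0.0641 in mutants; for the interaction, Pck1 -0.29 to 0.73, Fbp1 -0.0823 to 0.18, Pklr -0.18 to 0.28, Ppargc1a -0.12 to 0.70 and Txnip -0.0771 to 0.51.

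With only the libraries compared, the number of genes called in all moved from 1726 to 986 for restriction in wild type, from 1262 to 2202 and from 2320 to 877 for genotype under free feeding and restriction, from 87 to 568 for age in mutants and from 190 to 126 for the interaction, and with DESeq2 it moved to 201 for age in mutants and 388 for the interaction. The counts of called list genes, given in the report with their ranges, moved by over 1.5 times, or to or from 0, in 261 of 1408 counts with 1 library left out. Deviations of libraries that share a replicate number correlated from -0.22 to 0.32, and in no comparison were all 4 above 0.1, so the numbers were not taken as pairs. With the replicate block, the calls of G6pc and Pklr between restricted groups (adjusted p = 0.0503 and 0.0595, edgeR) and of Txnip with age in mutants (adjusted p = 0.0981, edgeR) were lost. Counting error is largest for the members with few reads: Ppargc1a had 17 to 303 and Pfkfb3 73 to 828 reads a library, against at least 6689 for Pcx.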
